A study of Homo sapiens with 30 samples.

Results

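Adding tetracycline to HEK293 cells that carry wild-type GFP-TIA1a was followed in the cytosol by lower levels of the mRNAs for TIAL1, EIF4A2, ARRDC4, MYC and noggin, and by higher levels of those for ERC1, EPHA2, TNFRSF10D and many zinc-finger genes. The comparison rests on 6 of the 30 libraries of the series, the 3 titled as WT cytosol with tetracycline and the 3 titled as WT cytosol without it. All 6 came from 1 engineered line, FT293-GFP-TIA1aWT, a stably transfected derivative of Flp-In T-REx HEK293, an established human embryonic kidney line in which tetracycline switches on a gene placed at a docking site. Untreated and treated libraries thus carry the same transgene, and the groups differ in whether tetracycline was present. The labels give neither its dose nor its duration, nor whether the line is a single clone. The effects of tetracycline itself and of the GFP-TIA1a it induces cannot be told apart in these 6 libraries. As side-by-side values the text also gives 3 WT libraries with tetracycline and then 0.5 mM sodium arsenite for 60 min, and the 3 against 3 libraries without and with tetracycline of FT293-GFP-TIA1aWDM, the same kind of line with the TIA1 mutation of Welander distal myopathy (WDM). RNA came from cytosol extracts and was made into stranded total-RNA libraries after removal of ribosomal RNA.

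TIA1 is an RNA-binding protein with RNA recognition motifs that prefer U-rich sequence. In the nucleus it helps the splicing machinery to choose weak 5′ splice sites, and in the cytosol it binds U-rich and AU-rich 3′ ends and can hold back translation of the mRNAs it binds. Under stress it gathers with untranslated mRNAs in stress granules. TIAL1, also called TIAR, is its closest relative, and the pair can regulate each other's expression.

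The libraries had 9500101 to 10362221 counts without and 12336703 to 13546512 counts with tetracycline. Levels are CPM, counts per 1000000 counts of the library with no further scaling. Differences are fitted log2 fold changes, which also use TMM library factors and are positive where the level was higher with tetracycline. Calls were made where the adjusted p was under 0.05 (edgeR quasi-likelihood test, Benjamini-Hochberg over all 16670 genes tested). Nothing in the labels says that the 3 libraries of a group came from separate cultures, so p-values measure a spread between libraries that may be technical. That spread was estimated within groups over all 18 cytosol libraries of the series, WDM and arsenite libraries included, and not from the 6 libraries compared alone. Tetracycline replicate 1 stood apart from replicates 2 and 3. Its chi-square statistic per degree of freedom against them was 23.9 and 24.2, where that between replicates 2 and 3 was 2.81 and those among untreated libraries were 1.63 to 3.65. On the first principal component of the 6 libraries (37% of the variance) it lay at -10.73, nearer the untreated libraries (-22.96 to -13.97) than tetracycline replicates 2 and 3 (26.57 and 35.13). On the second component (26.7%) it lay at -40.83, far from the untreated libraries (8.654 to 16.58) and from the other treated ones (1.514 and 3.367). Counts without it are given for the gene lists described where they change. Of 13 markers of HEK293 and epithelial cells none was called, and 11 were above 1 CPM in at least 1 library (PAX8 and NEFM were not), among them KRT8 at 147 to 177 CPM and VIM at 632 to 778 CPM. All 6 muscle and endothelial markers and 4 of 5 blood markers were at or under 1 CPM in every one of the 6 libraries, as were 2 of 4 fibroblast markers. The others, HBA1 (0.526 to 1.95 CPM), COL1A1 (1.13 to 4.5 CPM) and COL3A1 (1.45 to 2.46 CPM), were not called.

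The transgene's own gene could not serve as a check. TIA1 (ENSG00000116001, GRCh38 chromosome 2, 70209444 to 70248660, minus strand) had no count in any untreated library and 1 count in tetracycline replicate 1, so its induction was not detectable in this table. Its exons fall for 99.3% of their length within C2orf42, a gene of the same strand. The table as a whole behaved alike at such places. The genes counted for this were protein-coding, with little exon length on other same-strand exons and under 1% inside an opposite-strand gene. Of 247 such genes whose exons fell for over 99% of their length within another same-strand gene, 222 (89.9%) had 3 counts or fewer over the 18 cytosol libraries. With under 1% so placed it was 1589 of 9159 (17.3%). Among genes placed for over 99% of their exon length within an opposite-strand gene instead, and chosen in the mirrored way, it was 312 of 850 (36.7%). C2orf42, whose span holds TIA1, had 10.6, 10.5 and 13.5 CPM without and 13.1, 13.5 and 12.7 CPM with tetracycline, groups that overlapped (log2 0.22, adjusted p 0.315).

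TIAL1 (ENSG00000151923, chromosome 10, 119571802 to 119597029, minus strand) had 70.5, 58.6 and 61.6 CPM without and 44.4, 32 and 28.8 CPM with tetracycline. Every treated library was below every untreated one, and replicate 1 was the least lowered of the 3. Groups without overlap, in either direction, were seen in 4369 of the 16670 genes tested (26.2%). The log2 fold change was -0.82 (SE 0.142, adjusted p 0.0042), and the call held in each of the 6 fits that left out 1 library (adjusted p 0.000492 to 0.0284).

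Across all 16670 genes 886 were called (5.31%), 488 higher (2.93%) and 398 lower (2.39%) with tetracycline. Lower genes moved further: 79 (0.474%) fell and 20 (0.12%) rose to a log2 change of 1 or beyond, most of them at a few CPM or less. The median over all genes tested was -0.0032. Scaling by library size alone gave 842 calls and turned the split from 55.1% higher to 44.1% higher. DESeq2 gave 1127 calls with 65.2% higher. With only the 6 libraries compared in the fit, 220 genes were called, 44.5% of them higher. The number of calls also depended on single libraries: it was 1765 without tetracycline replicate 1, and without the other libraries it was 189 (untreated replicate 1), 195 (untreated replicate 2), 333 (untreated replicate 3), 400 (tetracycline replicate 2) and 243 (tetracycline replicate 3).

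**Figure D1:**
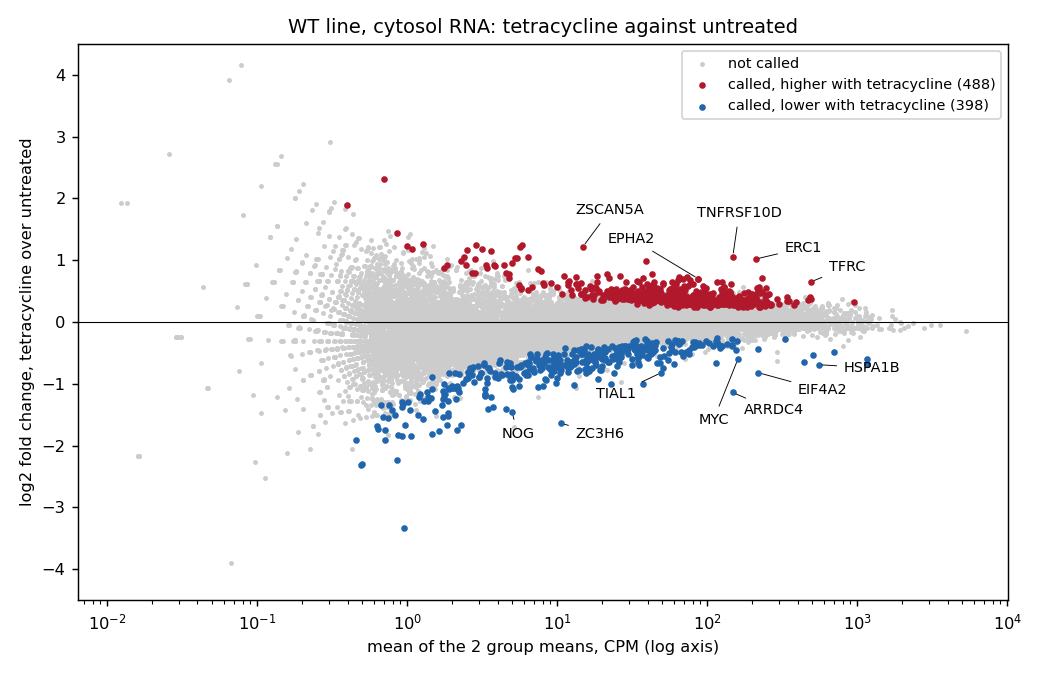
Each point is 1 of the 16670 genes tested, with the mean of the untreated and tetracycline group means (CPM, log axis) against the log2 fold change with tetracycline in WT cytosol. The 488 genes called higher (red) lie mostly under a log2 fold change of 1, while 79 of the 398 called lower (blue) pass -1, and ARRDC4 and EIF4A2 are labelled among the abundant mRNAs that fell.

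The genes that fell furthest or with the smallest p, by a rule set out in the methods, encode proteins of unrelated kinds. Only genes whose groups did not overlap could pass that rule, so the separation of their groups was fixed by the choice. ARRDC4, an arrestin-domain protein related to TXNIP that takes part in glucose handling, had the smallest p. Its level (ENSG00000140450, chromosome 15, 97960703 to 97973833, plus strand) was 227, 206 and 181 CPM without and 85.2, 103 and 83 CPM with tetracycline. The treated libraries lay well under the lowest untreated one (log2 -1.14, SE 0.139, adjusted p 0.000381). EIF4A2, an RNA helicase of translation initiation and a close paralog of EIF4A1, had 298, 286 and 264 CPM without and 132, 165 and 166 CPM with tetracycline (chromosome 3, 186783205 to 186789897, plus strand; log2 -0.82, SE 0.108, adjusted p 0.000582). Here replicate 1 was the lowest of the treated libraries. SLC25A27, a carrier of the mitochondrial inner membrane also known as UCP4, had 33.5, 29.8 and 29.1 CPM without and 17.1, 15.5 and 12.4 CPM with tetracycline (chromosome 6, 46652915 to 46678190, plus strand; log2 -1.0, SE 0.141, adjusted p 0.00101). ZCCHC12, a zinc-knuckle protein, had 75.4, 74.1 and 73.7 CPM without and 38.5, 49.7 and 46.4 CPM with tetracycline (chromosome X, 118823824 to 118826968, plus strand; log2 -0.68, SE 0.103, adjusted p 0.00165). The 3 untreated libraries of ZCCHC12 were almost equal, and the treated ones were more spread. All 4 of these calls held whichever of the 6 libraries was left out.

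Other mRNAs with large falls were scarcer. NOG, which encodes noggin, a secreted inhibitor that binds bone morphogenetic proteins (BMPs), had 8.28, 7.26 and 6.66 CPM without and 3.03, 2.58 and 2.19 CPM with tetracycline (ENSG00000183691, chromosome 17, 56593699 to 56595611, plus strand; log2 -1.46, SE 0.245, adjusted p 0.00389). SYT1, the calcium sensor of synaptic vesicles, went from 6.8, 5.68 and 7.62 CPM to 2.73, 2.98 and 1.62 CPM (log2 -1.41, adjusted p 0.00532), although 60.8% of its exon length lies opposite another gene. For both genes the groups were far apart and no single library decided the call. C1QTNF6, a secreted C1q-related protein, fell by 1.03 on the log2 scale (adjusted p 0.00421) and NT5M, a mitochondrial nucleotidase, by 1.02 (adjusted p 0.00761), both whichever library was left out. The falls of ZC3H6 (log2 -1.64), which encodes a zinc-finger protein of the CCCH type, RELN (-1.40), which encodes the secreted protein reelin, and IGFBP5 (-1.01), a binding protein for insulin-like growth factors, leaned on single libraries. ZC3H6 lost its call without untreated replicate 1 or tetracycline replicate 3 (adjusted p up to 0.0691) and RELN without those or untreated replicate 2 (up to 0.0913). IGFBP5 was called only with all 6 libraries or without tetracycline replicate 1 (up to 0.12 otherwise), and DENND2A (-1.05) only with all 6 or without tetracycline replicate 2 (up to 0.196).

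The genes that rose furthest or with the smallest p were likewise of several kinds, zinc-finger genes and lncRNAs (described further on) among them. ERC1, a scaffold protein of secretory sites and of NF-kappaB signalling, had 153, 133 and 137 CPM without and 354, 247 and 239 CPM with tetracycline (ENSG00000082805, chromosome 12, 990509 to 1495933, plus strand; log2 1.02, SE 0.128, adjusted p 0.000381). Replicate 1 was the highest library, and without it the log2 fold change was 0.86. EPHA2, a receptor tyrosine kinase for ephrins, had 66.8, 68.4 and 67.4 CPM without and 117, 104 and 99.4 CPM with tetracycline (chromosome 1, 16124337 to 16156069, minus strand; log2 0.70, SE 0.0838, adjusted p 0.000381). The untreated values of EPHA2 were almost equal. TNFRSF10D, a decoy receptor for the death ligand TRAIL, had 92.1, 98.9 and 103 CPM without and 183, 178 and 233 CPM with tetracycline (chromosome 8, 23135588 to 23164027, minus strand; log2 1.06, SE 0.143, adjusted p 0.000982). ETV5, an ETS-family transcription factor downstream of fibroblast growth factor signalling, had 30.2, 30.8 and 35.5 CPM without and 59.4, 47.9 and 53.2 CPM with tetracycline (log2 0.77, SE 0.117, adjusted p 0.00187). The rule again took only genes whose groups did not overlap. All 4 calls held whichever library was left out. So did that of B3GALNT1, a glycosyltransferase of globoside synthesis (log2 1.04, adjusted p 0.00507). SGK1, a serum-inducible kinase (log2 0.78), and IGFBPL1 (0.92) were called only with all 6 libraries or without tetracycline replicate 1, with adjusted p up to 0.196 and 0.19 otherwise. TFRC, the transferrin receptor, was chosen after its values were seen. It went from 402, 379 and 387 CPM to 561, 555 and 657 CPM (log2 0.65, adjusted p 0.00474), with no overlap between the groups.

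**Figure D2:**
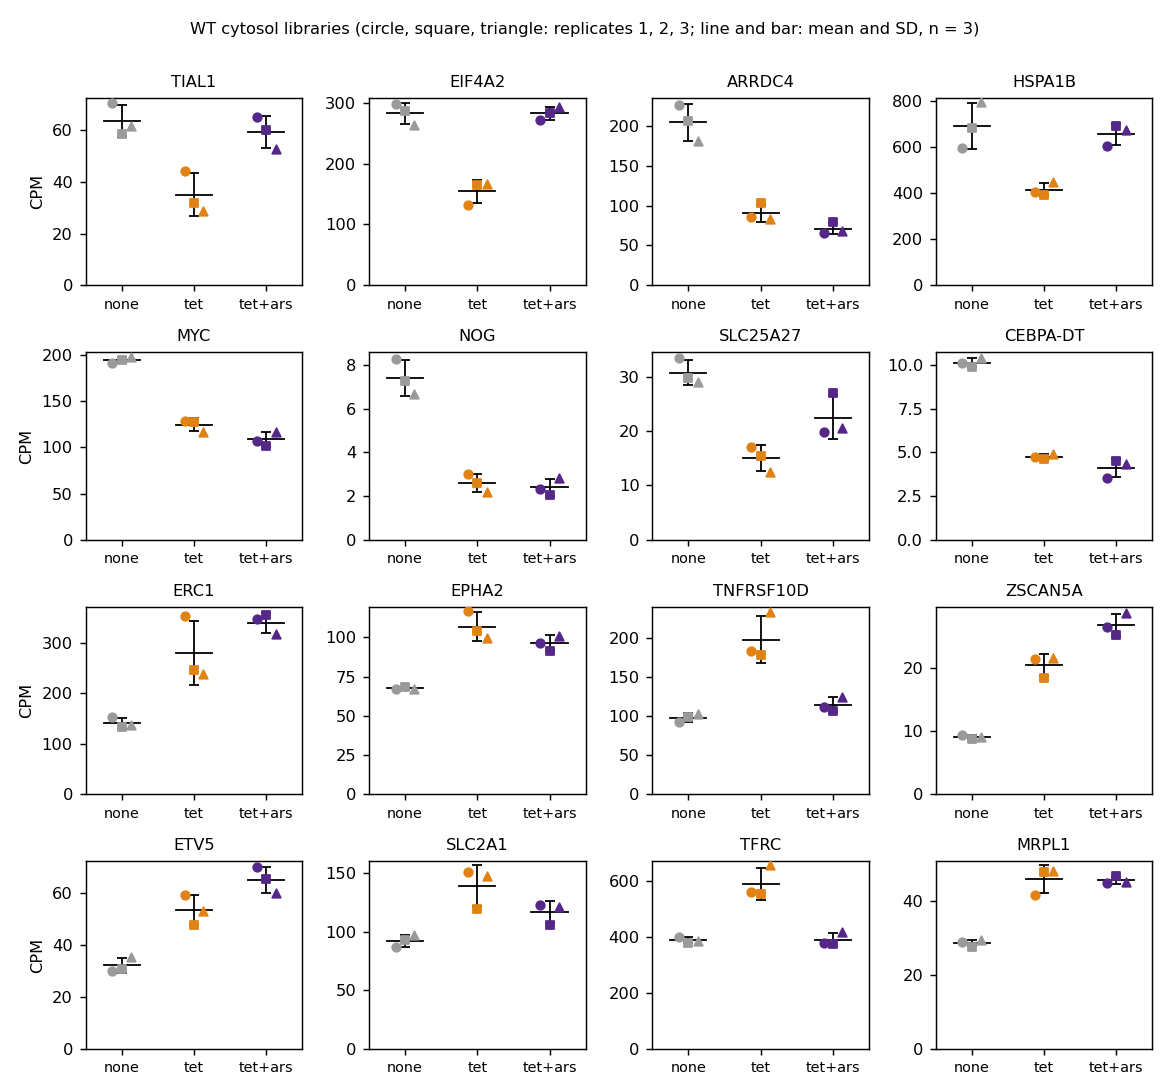
Levels in CPM of 16 genes in the WT cytosol libraries without tetracycline (none), with tetracycline (tet) and with tetracycline and arsenite (tet+ars). Each symbol is a library, and lines and bars are means and SD (n = 3). In each panel the 3 tetracycline libraries lie outside the range of the 3 untreated ones, which the rule that named many of these genes required. TIAL1 stands at 28.8 to 44.4 CPM against 58.6 to 70.5 CPM, and EPHA2 at 99.4 to 117 CPM against 66.8 to 68.4 CPM.

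The gene lists described next group genes by textbook function, and their counts are to be read against the 5.31% of all genes called. Of 22 RNA-binding proteins of the TIA1 kind, meaning TIA1 and its relatives with other proteins that bind U-rich or AU-rich RNA, 18 were tested. TIAL1 was the only one that fell. PTBP2, the neuronal relative of the splicing repressor PTBP1, rose from 122, 115 and 109 CPM to 144, 148 and 150 CPM (log2 0.39, adjusted p 0.00605; 0.0501 with only the 6 libraries fitted). ELAVL1, which encodes the AU-rich element binder HuR, was not called (log2 0.25, adjusted p 0.157), nor was PTBP1 (0.18, adjusted p 0.27). The list's median was 0.15, and without tetracycline replicate 1 it had 1 member higher and 2 lower.

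Of 16 mRNAs described elsewhere as TIA1 targets, 15 were tested, 1 fell and 2 rose (3 rose without tetracycline replicate 1). MYC, a transcription factor of cell growth, had 191, 195 and 198 CPM without and 129, 128 and 117 CPM with tetracycline (ENSG00000136997, log2 -0.60, SE 0.0952, adjusted p 0.00253). The groups were narrow and far apart, and the call held without any 1 library. HIF1A (log2 0.32, adjusted p 0.036) and SIRT1 (0.30, adjusted p 0.0361) rose, but only with all 6 libraries or without tetracycline replicate 1 (up to 0.147 and 0.135 otherwise), and 64.2% of the exon length of HIF1A lies inside another gene on its strand. FAS, whose exon choice is a classic example of TIA1-dependent splicing, had a log2 fold change of 0.02 in its gene count (adjusted p 0.953).

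SR proteins, which bind exons and promote splicing, and the CLK kinases that phosphorylate them made a list of 20 genes, all tested, of which 4 rose and 1 fell (25%, median 0.13). SRSF8 went from 32, 36.1 and 36.1 CPM to 52.3, 52.4 and 48.3 CPM (log2 0.60, adjusted p 0.0042), and SRSF5 from 107, 117 and 127 CPM to 147, 187 and 185 CPM (0.61, adjusted p 0.0117). SRSF6 went from 3.65, 4 and 5.02 CPM to 7.97, 8.15 and 9.4 CPM (1.05, adjusted p 0.00474). Because its exons fall for 96.7% of their length within another same-strand gene, the count of SRSF6 may hold only part of its reads. SRSF9 rose at the edge of the threshold (0.28, adjusted p 0.0499). CLK2 was the member that fell, from 36.4, 43.4 and 43.8 CPM to 29.5, 30.7 and 28.9 CPM (log2 -0.43, adjusted p 0.0169). The calls of SRSF8 and SRSF6 held in all fits that left out 1 library, with 5 members higher without tetracycline replicate 1 and 2 higher without untreated replicate 1 or 2 or tetracycline replicate 2 or 3. SRSF5 lost its call in those 4 fits (adjusted p up to 0.0691) and CLK2 without untreated replicate 2 or 3 or tetracycline replicate 3 (up to 0.0848).

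Genes of translation and of mRNA granules moved little beside EIF4A2. Among 50 translation initiation factor genes tested, EIF1B was the other one called (log2 0.46, adjusted p 0.0459). Its call was lost when any library other than tetracycline replicate 1 was left out (up to 0.211). Of 22 stress granule proteins tested only G3BP2 was called (0.34, adjusted p 0.0468), and it too was lost when any library other than tetracycline replicate 1 was left out (up to 0.212). G3BP1, its relative that nucleates stress granules, had a log2 fold change of 0.12 (adjusted p 0.533). Of 32 processing-body and decay proteins, PAN2, the catalytic subunit of a poly(A)-shortening enzyme, fell from 60.6, 62.1 and 63.8 CPM to 43.4, 40.7 and 40 CPM (log2 -0.55, adjusted p 0.00408), whichever library was left out. LSM14A rose (0.27, adjusted p 0.0207; up to 0.082 without any library other than tetracycline replicate 1). Without tetracycline replicate 1, initiation factors had 3 higher and 1 lower, stress granule proteins 3 and 1, and processing-body and decay proteins 3 and 2. Of 78 cytosolic ribosomal protein genes RPL39L alone was called (log2 -0.52, adjusted p 0.0186; lost without any 1 of the untreated libraries or tetracycline replicate 3, up to 0.0678). Only 8 of the 78 had a log2 fold change above 0 (median -0.09), and without tetracycline replicate 1 the median was 0.02.

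**Figure D3:**
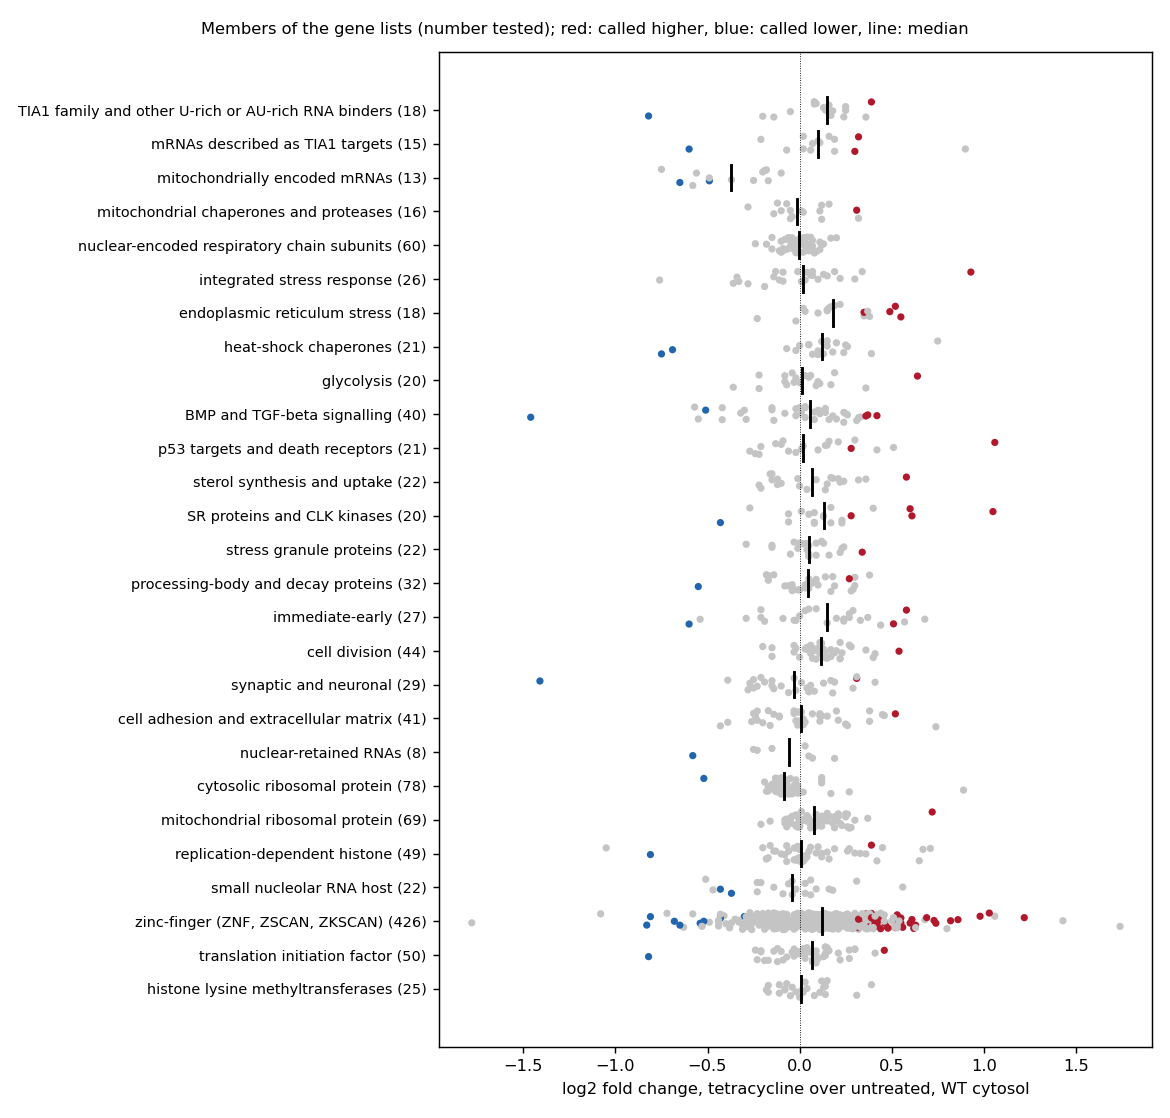
Log2 fold changes with tetracycline in WT cytosol (horizontal axis) of the tested members of 27 gene lists, 1 row per list with the number tested, red and blue for members called higher and lower, grey for the rest, and a black line at the median. Called members are few in most rows. The zinc-finger row holds 48 red and 8 blue points, and the points for mitochondrially encoded mRNAs all lie left of 0.

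Stress genes did not move as a block. Of 18 genes of the endoplasmic reticulum stress response, 4 rose and none fell (22.2%, median 0.18). DNAJC3, a co-chaperone of the endoplasmic reticulum, had 126, 118 and 114 CPM without and 158, 160 and 170 CPM with tetracycline (log2 0.49, SE 0.0992, adjusted p 0.00835), with no overlap, and it was called whichever library was left out. DNAJB9 (0.55, adjusted p 0.0207), DNAJB11 (0.52, 0.0462) and PDIA4 (0.35, 0.0466), a pair of co-chaperones and a disulfide isomerase of the same compartment, were less firm. The list had 5 called members without tetracycline replicate 1, 2 without untreated replicate 2 and 1 without any 1 of the other libraries. HSPA5, which encodes its main chaperone BiP, was not called (0.35, adjusted p 0.473). Of 26 genes of the integrated stress response only ATF5, a transcription factor, was called (0.93, adjusted p 0.0329). It stood at 1.89 to 3.45 CPM without and 4.84 to 5.02 CPM with tetracycline, and was lost without untreated replicate 2 or 3 or tetracycline replicate 2 or 3 (up to 0.149). ATF4, DDIT3 and TRIB3 were between 0.04 and 0.07 and not called.

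Heat-shock chaperones had 2 called members of 21 tested, both lower and both inducible Hsp70 genes. The same 21 had 3 called higher and 2 lower without tetracycline replicate 1. HSPA1B had 594, 682 and 792 CPM without and 404, 392 and 446 CPM with tetracycline (chromosome 6, 31827738 to 31830254, plus strand; log2 -0.69, SE 0.101, adjusted p 0.0014). HSPA1A had 54.3, 70.7 and 68.4 CPM without and 35.7, 37.6 and 38.5 CPM with tetracycline (log2 -0.75, adjusted p 0.00575). The groups did not overlap for either gene, which for HSPA1B the naming rule required, and both calls held whichever library was left out. The pair are near-identical copies, so how reads were divided between them is uncertain, and 56.5% of the exon length of HSPA1B lies inside another gene on its strand. The constitutive HSPA8 (0.20, adjusted p 0.473) and HSP90AA1 (0.15, adjusted p 0.762) were not called.

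All 13 mRNAs encoded by mitochondrial DNA had a log2 fold change below 0, from -0.75 to -0.10 with a median of -0.37, and 2 were called. MT-ND4, a subunit of complex I, had 44, 41.4 and 43.3 CPM without and 28.9, 22.1 and 28.9 CPM with tetracycline (log2 -0.65, SE 0.144, adjusted p 0.0151). MT-CO1, a subunit of cytochrome c oxidase, had 906, 773 and 785 CPM without and 760, 447 and 505 CPM with tetracycline (log2 -0.49, adjusted p 0.0332). For MT-CO1 replicate 1 lay close under the lowest untreated library while replicates 2 and 3 were far below. The number called was 5 without tetracycline replicate 1, 1 without untreated replicate 3 or tetracycline replicate 3, and 0 without untreated replicate 1, untreated replicate 2 or tetracycline replicate 2, when the median was -0.13. Together the 13 mRNAs took 0.161%, 0.143% and 0.146% of all counts without and 0.139%, 0.0976% and 0.11% with tetracycline, a ratio of 0.769 (two-sided exact permutation test, p 0.1, the smallest possible with 3 against 3). The extracts are from the cytosol, so how much mitochondrial RNA an extract holds and how much the cells made cannot be told apart.

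Nuclear genes for the same organelle were mostly not called. None of 60 nuclear-encoded respiratory chain subunits was called by edgeR or by DESeq2 (median -0.01), and 3 had an unadjusted p under 0.05, 1 higher and 2 lower. Of 69 mitochondrial ribosomal protein genes MRPL1, a protein of the large subunit, was the one called. It had 28.8, 27.6 and 29.3 CPM without and 41.4, 47.7 and 48.1 CPM with tetracycline (log2 0.72, SE 0.106, adjusted p 0.0014), and held whichever library was left out. Without tetracycline replicate 1 the list had 10 members called higher, and with library size alone 1 respiratory subunit was called lower. Of 16 mitochondrial chaperones and proteases GRPEL2 rose (2 rose without tetracycline replicate 1; GRPEL2 0.31, adjusted p 0.0248; up to 0.122 without any library other than tetracycline replicate 1).

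In BMP and TGF-beta signalling 40 genes were tested, 3 rose and 2 fell (12.5%, median 0.05). Among inhibitors outside the cell NOG fell, as given above, while CHRD (-0.30, adjusted p 0.564) and FST (-0.57, adjusted p 0.322) were not called. The ligands BMP7 (0.03) and BMP6 (-0.55, adjusted p 0.0666) and the receptors BMPR1A (0.16) and TGFBR1 (0.25) were not called. Inside the cell SMAD1, a signal transducer of BMP receptors, rose (0.36, adjusted p 0.0285), and so did SMURF1, a ubiquitin ligase that targets it (0.42, adjusted p 0.0279). ID2, a target gene of the pathway, fell from 88.4, 93.2 and 86.9 CPM to 52.6, 68.6 and 61.1 CPM (-0.51, adjusted p 0.0262), and ID1 (0.32) and ID3 (0.14) were not called. FSTL1, a secreted glycoprotein, rose (0.37, adjusted p 0.0168). Without untreated replicate 2 or tetracycline replicate 2 no member was called higher, and ID2 stayed called only when tetracycline replicate 2 was the library left out (up to 0.101 in the other fits).

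Of 27 immediate-early genes tested, MYC fell and the ERK phosphatases DUSP5 (0.51, adjusted p 0.0195) and DUSP6 (0.58, adjusted p 0.04) rose. FOS (0.57, adjusted p 0.392), JUN (-0.21, adjusted p 0.235) and EGR1 (-0.19, adjusted p 0.808) were not called. The list had 2 higher and 2 lower without tetracycline replicate 1. DUSP5 and DUSP6 lost their calls without untreated replicate 1 or 2 or tetracycline replicate 2 or 3 (up to 0.109 and 0.235). SPRY1, SPRY2 and SPRED1, inhibitors of the path from growth-factor receptors to ERK, were chosen after their values were seen. SPRY2 had 27.7, 29.9 and 28.2 CPM without and 37.1, 39.6 and 38.2 CPM with tetracycline (log2 0.47, adjusted p 0.00893; 0.0545 without untreated replicate 1). SPRED1 had 40.5, 37.5 and 37.3 CPM without and 55.2, 48 and 48.8 CPM with tetracycline (0.44, adjusted p 0.00724). SPRY1 had 15.3, 15.2 and 14.2 CPM without and 21.7, 17.9 and 18.6 CPM with tetracycline (0.43, adjusted p 0.0335), and its call was lost whichever library was left out (0.0523 to 0.116). With only the 6 libraries fitted none of the 3 was called (adjusted p 0.0501 for SPRY2 and SPRED1 and 0.0924 for SPRY1).

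Among 21 p53 targets and death receptors TNFRSF10D and MDM2, the ubiquitin ligase of p53, rose (MDM2 0.28, adjusted p 0.0448; up to 0.187 without any library other than tetracycline replicate 1). CDKN1A (0.14, adjusted p 0.451) and TNFRSF10B, a signalling TRAIL receptor (0.21, adjusted p 0.097), were not called. Without tetracycline replicate 1 the list had 5 members higher. Of 20 glycolysis genes SLC2A1, the glucose transporter GLUT1, was called. It had 86.7, 92.4 and 97.3 CPM without and 151, 119 and 147 CPM with tetracycline (log2 0.64, SE 0.104, adjusted p 0.00325), whichever library was left out, and none of the enzymes was called, HK2 at 0.00 and LDHA at 0.11. TXNIP, the relative of ARRDC4 that also restrains glucose uptake, was chosen after its values were seen. It had 30, 30.6 and 27.5 CPM without and 24.4, 22.7 and 22.7 CPM with tetracycline, groups that did not overlap, but was not called (-0.29, adjusted p 0.195).

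Other lists had few calls. Of 44 cell division genes CDC6, which licenses replication origins, rose (0.54, adjusted p 0.0305; up to 0.147 without any library other than tetracycline replicate 1). Of 29 synaptic and neuronal genes SYT1 fell and SYT11 rose (0.31, adjusted p 0.04; up to 0.218), and of 41 adhesion and matrix genes COL5A2 rose (0.52, adjusted p 0.0348; up to 0.18). Among 49 replication-dependent histone genes H2AC16 rose (0.39) and H4C15 fell (-0.81), copies of families whose members are nearly identical, and both were lost without any library other than tetracycline replicate 1. Of 22 snoRNA host genes GAS5 (-0.43, adjusted p 0.0152) and ZFAS1 (-0.37, adjusted p 0.022) fell, and neither call held without untreated replicate 1 or 2 (up to 0.0708 and 0.123), nor that of ZFAS1 without tetracycline replicate 3. None of 25 histone lysine methyltransferases was called, by edgeR or by DESeq2, and 3 had an unadjusted p under 0.05, 1 higher and 2 lower. Without tetracycline replicate 1 the counts of higher and lower members were 7 and 1 for histones, 3 and 2 for adhesion and matrix genes, 1 and 2 for snoRNA hosts, 5 and 1 for cell division and 0 and 1 for methyltransferases.

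Zinc-finger genes named ZNF, ZSCAN or ZKSCAN, most of which encode DNA-binding proteins with tandem C2H2 fingers, were the largest of the 27 lists and had the most calls. The share called was 13.1%, against 5.31% of all genes. Larger shares were seen only in SR proteins and CLK kinases (25%), endoplasmic reticulum stress (22.2%), TIA1 targets (20%) and mitochondrially encoded mRNAs (15.4%). Of 426 tested, 48 rose (11.3%) and 8 fell (1.88%), with a median of 0.12. The 190 on chromosome 19, where many of these genes sit in clusters, had 34 higher (17.9%) and 0 lower by edgeR (median 0.20), and 83 higher and 6 lower at an unadjusted p under 0.05. The 236 on other chromosomes had 14 higher and 8 lower (median 0.05), and the 877 other genes tested on chromosome 19 had 24 higher and 8 lower (median 0.02). DESeq2 called 49 of the 190 higher and 0 lower, scaling by library size alone gave 31 and 1 with a median of 0.16, offsets for transcript length and GC content gave 38 and 1, and fitting only the 6 libraries compared gave 11 and 0. Leaving out 1 library gave 57 higher and 1 lower without tetracycline replicate 1, 10 without untreated replicate 1, 14 to 17 higher without 1 of the others, and a median of 0.19 to 0.24.

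Single zinc-finger genes named for a large change or a small p had levels well above the counting limit. The rule that named ZSCAN5A, ZNF264, ZNF805, ZNF676, ZNF257 and ZNF677 required a call and groups that did not overlap, so they do not stand for the list. ZSCAN5A had 9.36, 8.74 and 9.07 CPM without and 21.5, 18.5 and 21.7 CPM with tetracycline (chromosome 19, 56219670 to 56368383, minus strand; log2 1.22, SE 0.142, adjusted p 0.000381). ZNF264 had 54.6, 46.6 and 47.3 CPM without and 91.3, 76.9 and 71.3 CPM with tetracycline (chromosome 19, 57191500 to 57222846, plus strand; log2 0.73, SE 0.0976, adjusted p 0.000667). Its neighbour ZNF805 had 26.9, 25.3 and 27.7 CPM without and 64.3, 49.1 and 40.1 CPM with tetracycline (chromosome 19, 57240632 to 57262728, plus strand; log2 0.98, SE 0.124, adjusted p 0.000381). In ZNF264 and ZNF805 replicate 1 was the highest treated library, and in ZSCAN5A the treated libraries were close together. ZNF200, on chromosome 16, had 41.7, 40.2 and 40 CPM without and 61.8, 60.5 and 60.6 CPM with tetracycline (log2 0.63, SE 0.0966, adjusted p 0.00212). These 4 calls held whichever library was left out. ZNF676 (1.03), ZNF257 (0.86) and ZNF677 (0.82) rested on fewer libraries: each was lost without untreated replicate 1, with adjusted p up to 0.113, 0.0884 and 0.0611 over the 6 fits. Of those that fell, ZNF449 (-0.83, adjusted p 0.00722) and ZNF280D (-0.81, adjusted p 0.0129) moved furthest. Many of these genes are similar in sequence, so reads shared between copies could be assigned differently by another counter.

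Long non-coding RNAs (lncRNAs) had more members called lower than higher. Of 2575 tested, 92 fell (3.57%) and 15 rose (0.583%), with a median of -0.21, while of 13068 protein-coding genes 283 fell (2.17%) and 466 rose (3.57%), with a median of 0.02. Library by library the median ratio of all tested lncRNAs to the untreated mean was -0.09, -0.22 and -0.26 on the log2 scale. It was thus below 0 in each treated library and nearest 0 in replicate 1. With library size alone 98 fell and 10 rose, and without 1 library the number that fell ran from 27 (without untreated replicate 1) to 125 (without tetracycline replicate 1), with 4 to 24 that rose. For protein-coding genes the split changed with the scaling and the fit: 355 rose and 351 fell with library size alone (median -0.02), and 91 rose and 93 fell when only the 6 libraries were fitted, where lncRNAs had 7 and 26. Without tetracycline replicate 1, 1069 protein-coding genes rose and 497 fell, and without 1 of the other libraries 99 to 195 rose and 52 to 137 fell. Among 687 lncRNAs whose names mark them as antisense (-AS) or divergent (-DT) to a coding gene, a grouping made after values were seen, 42 fell and 5 rose (median -0.25). The number that fell was 45 without tetracycline replicate 1, 11 without untreated replicate 2, 14 to 18 without 1 of the others, and 13 with only the 6 libraries fitted.

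Examples were scarce transcripts. CEBPA-DT, divergent to the gene of the transcription factor CEBPA, had 10.1, 9.89 and 10.4 CPM without and 4.72, 4.6 and 4.94 CPM with tetracycline (chromosome 19, 33302857 to 33305054, plus strand; log2 -1.05, SE 0.173, adjusted p 0.00357). INSIG1-DT had 6.5, 7.68 and 6.85 CPM without and 3.47, 3.15 and 3 CPM with tetracycline (-1.08, adjusted p 0.00421). In both, each group was narrow, and the rule that named them required groups that did not overlap. SNTG2-AS1 (-1.37, adjusted p 0.00751) and SP2-AS1 (-1.21, adjusted p 0.00577) fell as well, and these 4 calls held whichever library was left out. LINC01411 rose from 3.84, 3.37 and 3.28 CPM to 9.97, 7.42 and 6.89 CPM (1.25, SE 0.237, adjusted p 0.00568), and NECTIN3-AS1 rose too (0.95, adjusted p 0.00476). CCNT2-AS1 (0.80, adjusted p 0.0119) lost its call without untreated replicate 1 or 2 (up to 0.0653). The transcribed pseudogene FAM86B3P fell (-1.03, adjusted p 0.0083; 0.0505 without tetracycline replicate 3), but all of its exon length overlaps another gene on its strand.

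Nuclear-retained RNAs, which mark nuclear RNA in a cytosol extract, varied between the treated libraries. The list's 15 RNAs took 0.063%, 0.0532% and 0.0565% of counts without and 0.0781%, 0.0378% and 0.0366% with tetracycline, a ratio of 0.883 (two-sided exact permutation test, p 0.6, smallest possible 0.1). Replicate 1 was thus above and replicates 2 and 3 below all untreated libraries. MALAT1, a nuclear speckle RNA, had 299, 244 and 257 CPM without and 363, 157 and 144 CPM with tetracycline (log2 -0.25, adjusted p 0.663; -0.75 and 0.0256 without tetracycline replicate 1). NEAT1, the scaffold of paraspeckles, had 93.1, 80.2 and 88.9 CPM without and 132, 46.7 and 53.2 CPM with tetracycline (-0.15, adjusted p 0.855). MIR17HG, the host of a microRNA cluster, was the list's called member (2 fell without tetracycline replicate 1), from 41.6, 42.7 and 41.4 CPM to 25.1, 26.9 and 29.5 CPM (-0.58, adjusted p 0.0119; 0.0595 without untreated replicate 2). Over all tested lncRNAs replicate 1 was likewise the library apart, with the median of -0.09 given above against -0.22 and -0.26. The part of nuclear RNA in the fall of the lncRNAs was not tested. In bulk RNA, fewer cells with a transcript and less of it per cell cannot be told apart.

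**Figure D4:**
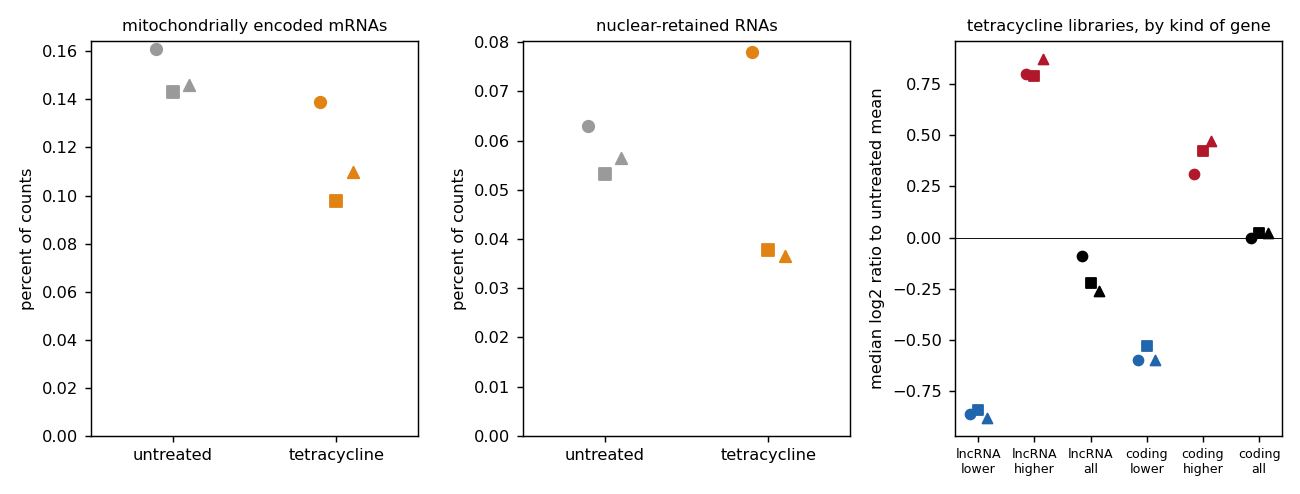
Left and middle, percent of all counts taken by the 13 mitochondrially encoded mRNAs and by the nuclear-retained RNAs in each of the 6 WT cytosol libraries (circle, square and triangle for replicates 1, 2 and 3). Right, median log2 ratio to the untreated mean in each tetracycline library, for lncRNA and protein-coding genes called lower (blue), called higher (red) and all tested (black). Replicate 1 stands apart from replicates 2 and 3 in the nuclear-retained RNAs (0.0781% against 0.0378% and 0.0366%) and in the median of all tested lncRNAs (-0.09 against -0.22 and -0.26); genes called lower were selected for being low over the treated libraries.

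WT cells with tetracycline and then arsenite give values beside these, with no test made here. Several mRNAs that were lower with tetracycline stood near their untreated level there. TIAL1 had 65, 60.1 and 52.8 CPM, EIF4A2 had 272, 283 and 293 CPM and HSPA1B had 603, 689 and 671 CPM. CLK2 stood above its untreated level, at 54.1, 55.5 and 56.2 CPM. Others stayed near their level with tetracycline alone. ARRDC4 had 66.2, 79.4 and 68 CPM, MYC 107, 102 and 117 CPM, NOG 2.32, 2.06 and 2.82 CPM and CEBPA-DT 3.52, 4.52 and 4.35 CPM. Of the genes that rose, ERC1 (347, 356 and 317 CPM) and ZSCAN5A (26.6, 25.3 and 28.8 CPM) remained high. TFRC (379, 375 and 420 CPM) overlapped its untreated range. TNFRSF10D (112, 107 and 125 CPM) lay above its untreated range (92.1 to 103 CPM) but below its level with tetracycline alone.

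The WDM line, whose 6 libraries are not shared with the WT comparison but which shared its estimate of the spread, in which 1050 genes were called (6.3% of those tested), gave the same direction for nearly all of these genes. Of the 488 genes that rose in WT, 483 had a positive log2 fold change in WDM and 215 were called higher there, 44.1% of the 488 and 42.1% of the 511 called higher in WDM (3.07% of genes tested). Of the 398 that fell, 381 were negative in WDM and 153 were called lower, 38.4% of the 398 and 28.4% of the 539 called lower in WDM (3.23% of genes tested). The share of all tested genes with the same sign in both lines is not given here, so the counts of matching signs have no background beside them. The median log2 fold changes of the genes called in WT were 0.415 and -0.656 in WT and 0.31 and -0.426 in WDM. Genes picked for their size in WT will by that choice tend to be smaller in the other line, so the smaller medians are a description only.

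TIAL1 (log2 -0.76, adjusted p 0.00337), EIF4A2 (-1.15, adjusted p 4.84e-06), ARRDC4 (-0.83, adjusted p 0.00192) and NOG (-1.70, adjusted p 0.000178) also fell in WDM. ERC1 (1.11, adjusted p 6.71e-05), EPHA2 (0.57, adjusted p 0.000616), TNFRSF10D (0.80, adjusted p 0.00343) and ZNF264 (0.93, adjusted p 1.85e-05) also rose there. The mitochondrially encoded mRNAs had a median of -0.58 in WDM with 6 called lower, and the zinc-finger genes on chromosome 19 had 21 higher and 3 lower. SYT1 started from unlike levels, with a mean of 43.6 CPM in untreated WDM and 6.7 CPM in untreated WT libraries. Its WDM log2 fold change was -0.03 (adjusted p 0.953), but the difference between the responses of the lines, 1.38 on the log2 scale (SE 0.306), did not pass the threshold over all genes (adjusted p 0.468).

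The test of that difference, the response in WDM minus that in WT, called 3 genes of 16670 (0.018%), and 748 had an unadjusted p under 0.05. Of the 886 genes called in WT, 2 were among the 3. APOLD1, which encodes an apolipoprotein L domain protein, had 31.7, 34.9 and 28.9 CPM without and 21.6, 21.5 and 19.7 CPM with tetracycline in WT (log2 -0.57, SE 0.104, adjusted p 0.00512; 25.6% of its exon length lies on DDX47), while in WDM its log2 fold change was 0.34 (adjusted p 0.035). SSPN, which encodes sarcospan of the dystrophin complex, had 2.46, 2.95 and 2.61 CPM without and 0.886, 0.887 and 1.46 CPM with tetracycline in WT (-1.27, adjusted p 0.00901; 0.0515 without untreated replicate 2) and 0.55 in WDM (adjusted p 0.0604), with 71.6% of its exon length opposite another gene. The third was ANOS1, a secreted matrix protein, which was not called in WT (0.08, adjusted p 0.677). Without 1 library the number of genes with such a difference was 1 to 4, and it was 1 without untreated replicate 1 or 2 of WT or any untreated replicate of WDM.

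**Figure D5:**
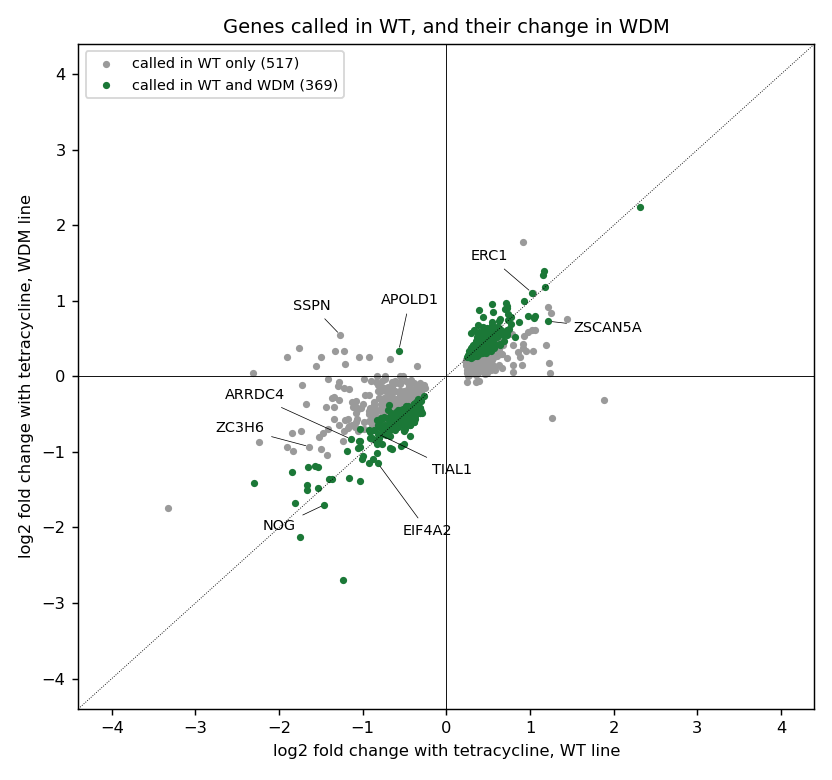
Log2 fold change with tetracycline in the WT line (horizontal) and in the WDM line (vertical) for the 886 genes called in WT, with a dotted line of equal change; green points (369) were called in both lines. Nearly all points lie in the lower left and upper right, and APOLD1 and SSPN are labelled in the upper left.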

How the data were processed

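The authors deposited unnormalised gene-level read counts, 1 column a library, with replicates kept apart. CPM were computed from library totals, without the TMM factors used in the fit. The submitters' processing notes name Trimmomatic, STAR, Picard, featureCounts and GRCh38, and how strand and overlapping genes were counted is not given in the sources used here. Groups and replicate numbers came from the sample titles. All 18 cytosol libraries (6 groups of 3) were fitted together in edgeR 4.0.16 (R 4.3.3): filterByExpr (minimum count 10, minimum total 15), TMM factors, group means, robust quasi-likelihood test, Benjamini-Hochberg over 16670 genes (biological coefficient of variation 0.103). The fit was tested on simulated counts with 200 changed genes, drawn with the spread estimated over all 18 cytosol libraries. Those counts held no library that stood apart, so they cannot show how the fit handles tetracycline replicate 1. Totals of 9500101 to 13546512 counts in the 6 libraries make a count of 0 allow up to 3 counts, or 0.2215 to 0.3158 CPM, for counting error only. Identifiers were matched to GENCODE v44 of GRCh38 (60463 of 60664), and overlaps were computed with bedtools 2.31.1.

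Named genes were TIA1, TIAL1 and C2orf42; the largest (15) and smallest-p (5) genes in each direction among 456 higher and 289 lower genes with a symbol, a mean of 5 CPM or more in the higher of the groups, and no overlap between them; called list members with the smallest p (up to 4 a list, others given as values); and genes with a called difference between the lines. Of all 16670 genes tested, 4369 (26.2%) had groups that did not overlap. The members and lists were chosen with earlier results of these data known, and the lists come from textbook function. Some genes are not reported here. The alternatives tried were library size alone, RLE factors, a replicate block, no low-count filter, each library left out, only the 6 libraries compared, DESeq2 1.42.0 and, chosen after seeing the data, offsets for transcript length and GC content.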

Additional observations from a re-analysis of the deposited data

Results flagged for a closer look

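For 3 genes the response to tetracycline differed between the WDM and WT lines by the test of the difference itself (edgeR quasi-likelihood interaction, Benjamini-Hochberg over 16670 genes). ANOS1 differed by -1.57 on the log2 scale, WDM minus WT (SE 0.135, adjusted p 2.69e-06): it was 0.08 in WT and -1.49 in WDM. APOLD1 differed by 0.91 (SE 0.142, adjusted p 0.0208), lower with tetracycline in all 3 WT libraries than in any untreated one and higher in WDM. SSPN differed by 1.82 (SE 0.311, adjusted p 0.0494), at levels under 3 CPM in WT. ANOS1 held its call in all 12 fits that left out 1 library of either line. APOLD1 lost it without untreated replicate 1 or 2 or tetracycline replicate 3 of WT or any untreated replicate of WDM (adjusted p up to 0.151), and SSPN without any library other than tetracycline replicate 3 of WT (up to 0.265).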

How the results depend on the processing

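With 3 libraries a group, the count of calls changed with single libraries and with the libraries fitted. Leaving out 1 library gave 189 to 1765 genes called in WT, 104 to 1107 higher and 83 to 658 lower, against 886, 488 and 398. The same gave 422 to 773 genes called in WDM (1050 with all) and 1 to 4 genes with a called difference between the lines (3 with all). Fitting only the 6 libraries compared gave 220 calls in WT, 98 higher and 122 lower. In WDM, fitting only its own 6 libraries gave 1161 calls against 1050 in the main fit. The cause of the smaller number in WT was not tested. The number higher was 735 by DESeq2 and 740 with length and GC offsets. The genes that differed between the lines numbered 11 by DESeq2, 5 with length and GC offsets and 14 with no low-count filter; the cause was not tested. The ratio of nuclear-retained RNAs, 0.883, ran from 0.646 to 1.01, and it turned to 1.01 without tetracycline replicate 3. Of 82 named genes called in WT, 38 were called in all 6 fits that left out a library and 46 when only the 6 libraries were fitted, and over the alternatives run for named genes 1142 values kept their direction and their side of the threshold, 361 lost a call, 49 gained one and 0 turned direction. Genes at a few CPM are the most limited by depth.

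Whether the replicate numbers pair the samples is not settled. Same-numbered untreated and tetracycline libraries correlated weakly in their deviations from the group means, by 0.151, 0.0857 and 0.0476. Because the labels do not say that a number marks a shared batch, the fit with a replicate block stands only here. It gave 1287 calls in WT, 732 higher and 555 lower, and 6 genes with a called difference between the lines. Each untreated library correlated best with the tetracycline library of its own number, but tetracycline replicate 3 correlated best with untreated replicate 2 (0.082).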
